A study of Mus musculus with 4 samples.

Results

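Klf4 and the enhancers downstream of it were examined in the contacts made by acetylated chromatin of mouse embryonic stem cells. The locus was taken as 160 kb of chromosome 4 (GRCm38), with anchors from chr4:55406617-55410998 to chr4:55545383-55548127, which holds the Klf4 promoter, the long noncoding RNA gene Gm12510 and the enhancers 50 to 70 kb downstream of Klf4. Of the 1513030 pairs of anchors in the deposited table, 545 had at least 1 anchor overlapping this window. Of the 56562 anchors, 10 overlapped it. Pairs and anchors were assigned to the locus by position alone and by no measured value. The locus itself was chosen with earlier results of these data known.

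The method was HiChIP, which ligates neighbouring DNA ends in fixed nuclei, pulls down fragments carrying a chosen chromatin mark and counts read pairs that join distant sites. The mark here was H3K27ac, acetylation of lysine 27 of histone H3, found at active promoters and enhancers. An anchor is a stretch of chromatin that serves as an end of a contact, and a pair is a joining of 2 anchors. Cells of C57BL/6J (B6) were lines B6 4-1 (replicate 1) and B6 5-1 (replicate 2). Cells of DBA/2J (D2) were lines D2 2-9 (replicate 1) and D2 5-5 (replicate 2). All 4 lines were grown in serum with LIF, the MEK inhibitor PD0325901 and the GSK3 inhibitor CHIR99021, fixed with formaldehyde and cut with DpnII. The labels list no introduced allele, and each strain is represented by 2 lines.

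Klf4 encodes a zinc finger transcription factor of the Krüppel-like family that belongs to the network of factors holding mouse embryonic stem cells in the naive state. It is known as a target of the LIF and STAT3 pathway and as a reprogramming factor. Its enhancers lie in the gene-poor region downstream, which also carries Gm12510. Factors known to bind such enhancers include STAT3, ESRRB, KLF proteins, OCT4 and SOX2.

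The Klf4 gene lies on the minus strand at chr4:55527143-55532466, so downstream means lower coordinates. Its start site fell in an anchor of 19.5 kb at chr4:55518632-55538165. The whole interval 50 to 70 kb downstream fell in a single anchor of 43.3 kb at chr4:55447325-55490643, which also held the start sites of Gm12510 and of the small nucleolar RNA gene Gm22150. These are called the Klf4 anchor and the enhancer anchor. Individual enhancers within the enhancer anchor were therefore not resolved, and Gm12510 had no anchor apart from them.

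Sequence of both ends is shown because the strongest contact of the locus joins them. The first sequence is the 250 bases upstream of the Klf4 start (RefSeq, GRCm38.p6, chr4:55532476-55532725, minus strand), with matches to the GC box GGGGCGGGG on either strand in capitals. The other 3 lie in the interval 50 to 70 kb downstream and are given on the plus strand with 50 bases on each side. They show the match outside repeats to a KLF motif (chr4:55468069-55468176), to the STAT3 motif (chr4:55474081-55474189) and to the ESRRB motif (chr4:55476375-55476483), each match in capitals.
Klf4 upstream: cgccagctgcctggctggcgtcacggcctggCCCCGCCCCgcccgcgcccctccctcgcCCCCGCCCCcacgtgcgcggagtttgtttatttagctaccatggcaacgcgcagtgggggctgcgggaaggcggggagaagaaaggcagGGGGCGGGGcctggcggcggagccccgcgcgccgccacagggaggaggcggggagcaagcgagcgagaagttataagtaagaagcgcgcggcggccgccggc
KLF match: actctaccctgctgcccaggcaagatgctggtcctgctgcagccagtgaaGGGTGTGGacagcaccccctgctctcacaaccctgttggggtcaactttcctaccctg
STAT3 match: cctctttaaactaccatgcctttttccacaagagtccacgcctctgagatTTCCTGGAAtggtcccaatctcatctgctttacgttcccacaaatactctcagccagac
ESRRB match: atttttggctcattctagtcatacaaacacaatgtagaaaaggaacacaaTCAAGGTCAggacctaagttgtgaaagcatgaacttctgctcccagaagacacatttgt

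The Klf4 upstream sequence held 3 GC boxes, and 10.4% of 32851 RefSeq upstream sequences of the same length held at least 1. The GC box and TATAAA were searched after the sequence had been seen. No match to TATAAA (in 12.4% of upstream sequences), TTCCNGGAA for STAT3 (0.913%), GGGTGTGG or GGGCGTGG for KLF (7.72%), TCAAGGTCA for ESRRB (0.387%), ATGCAAAT for OCT (1.60%) or ACAAAGG or CATTGTT for SOX (8.22%) was present in it. The interval 50 to 70 kb downstream held 1 STAT3 match at 58335 bases from the start site, 2 ESRRB matches, 3 KLF matches and 4 SOX matches. The matches did not overlap each other. The whole enhancer anchor held 3 STAT3 matches, and 70% of 536 anchors of like width (80 to 125% of it) held at least 1, with a median of 1. It held 3 ESRRB matches, where 76.7% of those anchors held at least 1 and the median was 1. Its 6 KLF, 12 SOX, 2 OCT and 2 CTCF core matches stood beside medians of 7, 15, 2 and 4 in anchors of like width. Such matches describe the letters only.

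The libraries held between 2767882 and 2944258 counts, and values below are counts-per-million values (CPM) scaled by these totals. Pairs with a count numbered 833100 and 822266 in the B6 libraries (replicate 1, then 2) and 715798 and 803268 in the D2 libraries. Anchors over start sites of 8 of 10 embryonic stem cell markers summed to 1976 and 2072 CPM in the B6 lines (replicate 1, then 2) and to 2987 and 2016 CPM in the D2 lines. Anchors over 2 of 6 fibroblast markers summed to between 5.78 and 9.28 CPM, and the other 4 had no start-site anchor. Trophoblast, primitive endoderm, neural and mesoderm markers summed to between 71.9 and 309 CPM a list. The part of these levels in the results was not tested. The name of the D2 replicate 1 library carries the mark 10cyc where the others carry 8cyc, and its meaning is not given in the sources used here. Each strain is judged from 2 lines. The edgeR p-values below use a spread estimated with information shared over all tested pairs, anchors or windows. They do not rest on the spread of the 2 lines at that place alone.

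The 545 pairs of the locus held 5291 counts over the 4 libraries, and 201 of them held a single count. The 38 pairs with at least 20 counts, which were tested, held 3450 counts or 65.2%. Inside the window, 44 of the 45 possible pairs had been recorded. They held 46.5% of the counts, partners at lower coordinates 38.9% and partners at higher coordinates 14.6%. The enhancer anchor took part in 63.8% of the counts and the Klf4 anchor in 26.5%.

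The 10 anchors were much alike in counts per kb of their own width. The enhancer anchor had 78.0 counts per kb and the Klf4 anchor 71.7, and 7 of the other 8 lay between 67.7 and 89.9. The anchor 112 kb downstream stood apart at 15.2 counts per kb. In total count, not scaled for width, the enhancer anchor exceeded 99.0% of all anchors and the Klf4 anchor 94.2%. The enhancer anchor had 108 recorded pairs, of which 24 held at least 20 counts, and the Klf4 anchor 86 and 12.

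The contact between Klf4 and the enhancer anchor, 59.4 kb from midpoint to midpoint, held the most counts of the locus. It had 157 and 132 counts in the B6 lines (replicate 1, then 2) and 185 and 120 in the D2 lines, or 54.0, 47.1, 66.8 and 40.8 CPM. D2 replicate 1 was the highest and D2 replicate 2 the lowest, so the B6 values lay between the D2 values. The means were 50.6 ± 4.85 CPM in B6 and 53.8 ± 18.4 in D2 (SD, n = 2 each). The log2 fold change of D2 over B6 was 0.02 (SE 0.22, 95% interval -0.41 to 0.45, adjusted p = 0.975, edgeR's quasi-likelihood F-test, p-values adjusted by Benjamini-Hochberg over all 108034 tested pairs). Without D2 replicate 1 it was -0.37 and without D2 replicate 2 it was 0.32. A difference of strain in this contact was not detected, and the interval covers changes of either sign.

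This contact ranked 492 among all 1513030 pairs by count. Of 38712 pairs whose anchors lay 50 to 70 kb apart, 78 had more counts and 99.79% had fewer, and their median was 8. Both its anchors are broad, however, and counts grow with the width of the ends. Among the 236 pairs at this distance whose product of anchor widths was within 1.5-fold of its own, 40 had more counts, 82.2% had fewer, the median was 380 and the highest 1434.

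Counts per kb of the partner gave a different order. Toward the Klf4 anchor, the enhancer anchor gave 13.7 counts per kb of enhancer anchor, below the anchor 13.4 kb away on the downstream side with 21.4 and the anchor 18.4 kb away on the upstream side with 19.7. It was above the anchors at 23.4 kb with 10.4 and at 32.5 kb with 8.97, although these lie closer to Klf4, and above the 4 anchors beyond it, at 85.0 to 120 kb, with 1.27 to 5.71. Seen from the enhancer anchor, the Klf4 anchor gave 30.4 counts per kb, between the 41.3 of the anchor 26.9 kb away and the 27 of the anchor 46.1 kb away. These are sums over the 4 libraries and carry no test.

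**Figure D1:**
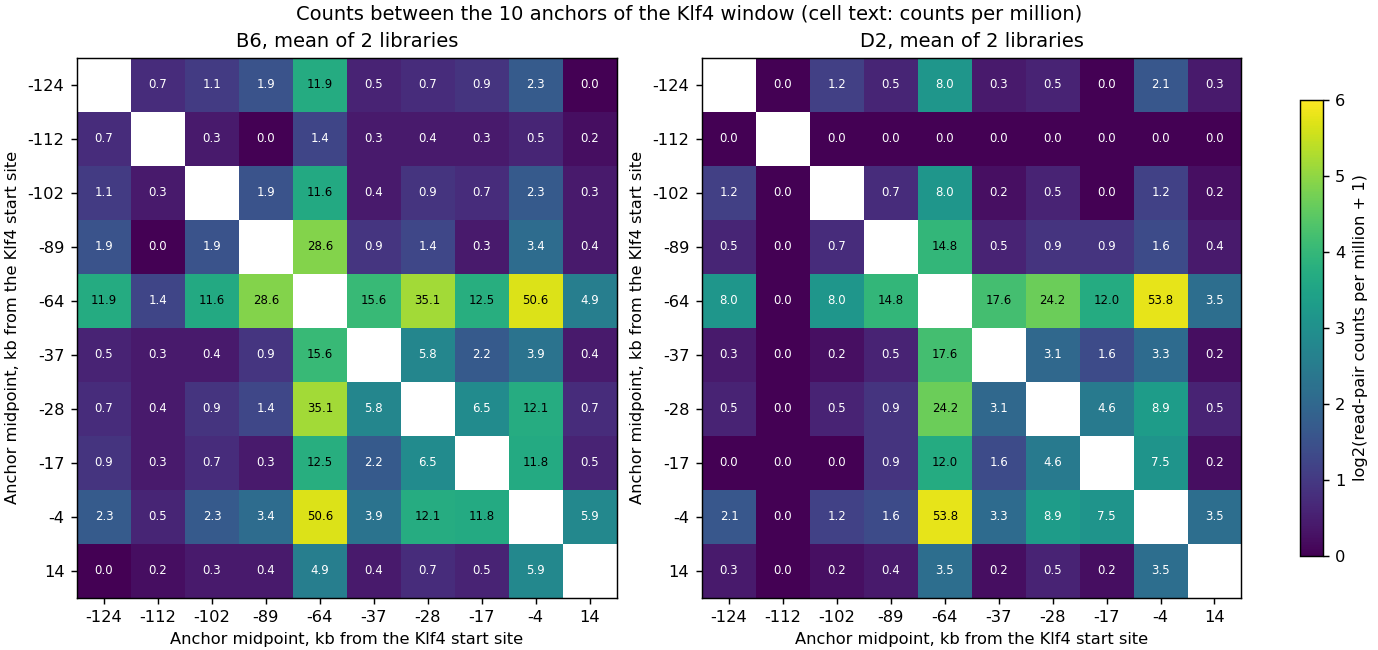
Mean CPM between each pair of the 10 anchors in B6 (left) and D2 (right), with anchors named on both axes by the distance of their midpoint from the Klf4 start site in kb (negative is downstream) and the colour scale as log2(CPM + 1). The row and column of the enhancer anchor, 63.5 kb downstream, hold the highest values, led by its contact with the Klf4 anchor, 4.07 kb downstream by its midpoint (50.6 in B6, 53.8 in D2), and the row of the anchor 112 kb downstream is at 0 throughout in D2.

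The other strong contacts of the enhancer anchor ran to anchors on both sides. Its pair with the anchor holding the pseudogene Gm12507, 36.0 kb toward Klf4, had 111, 90, 83 and 54 counts (B6 replicates 1 and 2, then D2 replicates 1 and 2, as in all lists of 4 values below). Both D2 libraries were below both B6 libraries in CPM, and the log2 fold change was -0.61 (SE 0.24, adjusted p = 0.211, edgeR). Without D2 replicate 1 it was -1.0 and passed the test (adjusted p = 0.0204, edgeR), and without D2 replicate 2 it was -0.31. Its pair with the anchor at chr4:55440155-55446565, 25.6 kb away and farther from Klf4, had 80, 83, 47 and 37 counts. This was 28.6 ± 1.50 CPM in B6 and 14.8 ± 3.12 in D2, with no overlap. The log2 fold change was -1.02 (SE 0.25, 95% interval -1.52 to -0.52, adjusted p = 0.00964, edgeR).

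That pair was the only called pair of the 38, where 1.45% of all tested pairs were called (0.957% lower and 0.492% higher in D2). DESeq2's Wald test called none of the 16 pairs to which it gave an adjusted p, with 2 of them at unadjusted p under 0.05, and the adjusted p of this pair there was 0.295. The call was also lost without B6 replicate 1, B6 replicate 2 or D2 replicate 2, where edgeR's adjusted p was 0.181, 0.251 and 0.0813 at log2 fold changes of -1.07, -0.97 and -0.82.

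Of the other pairs of the enhancer anchor on the Klf4 side, that with the anchor at chr4:55493578-55498148 had 42, 47, 55 and 45 counts and a log2 fold change of 0.10 (SE 0.27). That with the anchor at chr4:55512464-55517611, nearest to the Klf4 anchor, had 34, 37, 41 and 27 counts and a log2 fold change of -0.13 (SE 0.29). Their 95% intervals, -0.42 to 0.62 and -0.70 to 0.44, cover changes of either sign. Toward the far side, pairs with the anchors at 124 and 102 kb downstream had 43, 25, 29 and 16 counts (-0.65, SE 0.31) and 32, 34, 29 and 16 counts (-0.61, SE 0.32). Neither passed the test (adjusted p = 0.383 and 0.428, edgeR), and without D2 replicate 2 they were at -0.26 and -0.22. Without D2 replicate 1 they were at -1.19 and -1.15, and the first was at -0.24 without B6 replicate 1.

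Klf4 itself had lower values in D2 in its contacts with nearer anchors, none of which passed the test. Its pair with the Gm12507 anchor, 23.4 kb away, had 32, 37, 26 and 25 counts and a log2 fold change of -0.50 (SE 0.31, adjusted p = 0.556, edgeR). Its pair with the anchor 13.4 kb away had 31, 36, 22 and 21 counts and a log2 fold change of -0.70 (SE 0.32, adjusted p = 0.334, edgeR). In both pairs the D2 libraries lay below the B6 libraries.

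Across the 38 tested pairs, 34 (89.5%) had log2 fold changes below 0, beside 48.9% of all tested pairs. The median was -0.59, beside 0.02 over all tested pairs, and the range was -2.01 to 0.26. In 18 of the 38 (47.4%) both D2 libraries lay below both B6 libraries, beside 17.9% of all tested pairs, and in 1 both lay above, beside 23.8%. At unadjusted p under 0.05 there were 11 of the 38, all lower in D2, beside 12681 of 108034 in either direction. The 24 pairs of the enhancer anchor had a median of -0.57 with 20 below 0, and the 12 pairs of the Klf4 anchor a median of -0.57 with 11 below 0. These pairs share anchors and are not independent of each other.

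**Figure D2:**
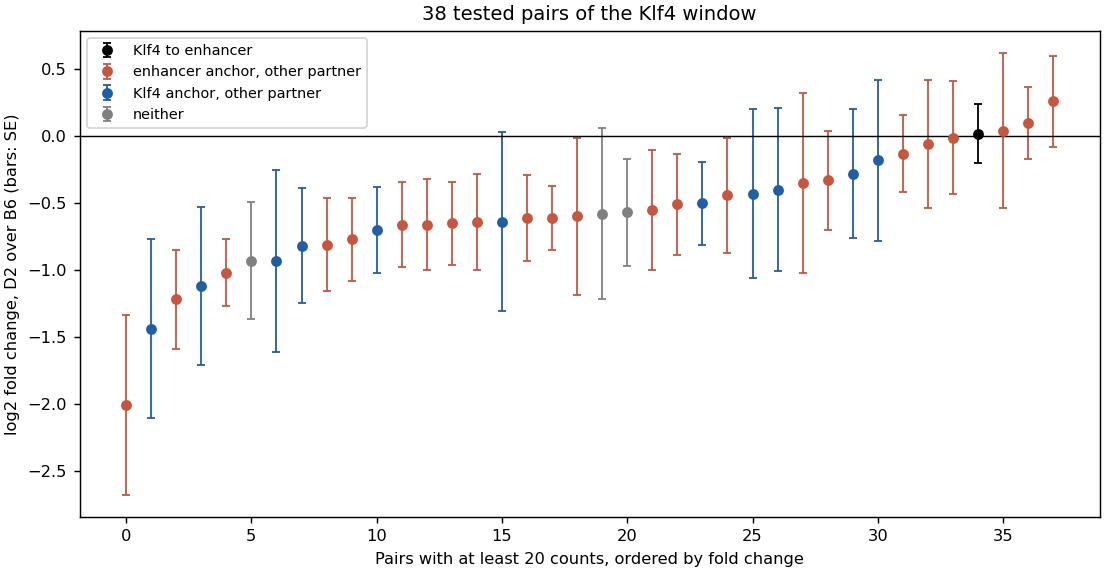
Log2 fold change of D2 over B6 (vertical axis, bars: SE) for the 38 pairs with at least 20 counts, ordered by fold change along the horizontal axis and coloured by the anchor they share. The Klf4 to enhancer pair, at 0.02, is among the 4 pairs above 0, and 34 lie below.

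The whole locus had 546 and 522 CPM in the B6 libraries and 443 and 345 CPM in the D2 libraries. The D2 libraries were both lower, with D2 replicate 2 the lowest. The means were 534 ± 16.8 and 394 ± 68.7 CPM (SD, n = 2 each), a log2 ratio of -0.45. An exact two-sided permutation test over the libraries gave p = 0.33, the smallest that 2 against 2 can give. Scaled by the counts of chromosome 4 instead of all counts, the log2 ratio was -0.28, and without D2 replicate 2 it was -0.27. Without the Klf4 to enhancer pair the values were 492, 475, 376 and 305 CPM and the log2 ratio -0.51.

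The same 160 kb was set beside all other windows of that length in a fit added after the data were seen. Its log2 fold change was -0.42 (SE 0.11, adjusted p = 0.00284, edgeR), where 18.1% of 10969 windows were called, 11.3% lower and 6.80% higher in D2. The call was lost without B6 replicate 1 (-0.35, adjusted p = 0.116) and without D2 replicate 2 (-0.21, adjusted p = 0.285). Without D2 replicate 2 that fit called 0 windows in all, with 2866 at unadjusted p under 0.05.

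The lower counts reached well beyond the locus. Of the 21 tested windows within 2000 kb, 9 were called lower in D2 and 1 higher. The 7 windows in a row that end with the locus, starting 960 kb below it, were all called lower, at log2 fold changes from -0.39 to -0.75. The window next to it on the Klf4 upstream side had -0.51 (SE 0.25, adjusted p = 0.163). On the whole of chromosome 4, 17.8% of 698 windows were called lower. Pairs are counted in the window of either anchor, so neighbouring windows share some pairs. In bulk cells, contact in fewer cells and fewer contacts a cell cannot be told apart, nor can less contact and less H3K27ac at an anchor.

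Split by anchor, 5 of the 10 anchors (50.0%) were called lower in D2 and none higher, where 9.75% of all tested anchors were called (7.08% lower, 2.67% higher). All 10 had log2 fold changes below 0, beside 49.4% of all tested anchors, with a median of -0.52 beside 0.006. In all 10 both D2 libraries lay below both B6 libraries, beside 28.0% of all tested anchors. The anchors share pairs, so these 10 values are not independent. DESeq2 called 0 of the 10, with 4 at unadjusted p under 0.05, all lower. Without D2 replicate 2, edgeR called 3, and without B6 replicate 1 it called 2.

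The 2 central anchors were not among those called. The Klf4 anchor had 384, 375, 361 and 280 counts, or 133 ± 1.31 CPM in B6 and 113 ± 25.0 in D2. Its D2 replicate 1, at 130 CPM, was close to the 132 and 134 of B6, and D2 replicate 2 was lower at 95.1. The log2 fold change was -0.20 (SE 0.17, adjusted p = 0.555, edgeR), -0.50 without D2 replicate 1 and 0.07 without D2 replicate 2. The enhancer anchor had 994, 901, 867 and 615 counts, or 332 ± 14.2 CPM in B6 and 261 ± 73.8 in D2. The log2 fold change of this anchor was -0.30 (SE 0.19, adjusted p = 0.364, edgeR), and 0.01 without D2 replicate 2. Without D2 replicate 1 it was -0.69 with an adjusted p of 0.00625.

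Of the anchors between them, the one holding Gm12507 (27.5 kb downstream, midpoint) was called lower. It had 246, 228, 162 and 148 counts and a log2 fold change of -0.57 (SE 0.16, adjusted p = 0.0158, edgeR). That call was lost without B6 replicate 1, B6 replicate 2 or D2 replicate 2, at adjusted p of 0.177, 0.0865 and 0.0897. The anchor 17.4 kb downstream had 136, 136, 106 and 83 counts (-0.48, SE 0.18, adjusted p = 0.0836, edgeR). It passed the test without D2 replicate 1 (-0.78, adjusted p = 0.0237, edgeR) and was at -0.22 without D2 replicate 2. The anchor 36.6 kb downstream had 110, 106, 91 and 104 counts, the change nearest to 0 of the 10 (-0.11, SE 0.18, adjusted p = 0.776). The single anchor upstream of Klf4, chr4:55545383-55548127, had 56, 50, 35 and 45 counts (-0.37, SE 0.24, adjusted p = 0.376).

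The 4 anchors beyond the enhancer anchor, 89.1 to 124 kb downstream, were all called lower in D2. The nearest of them, chr4:55440155-55446565, had 150, 163, 88 and 91 counts, or 54.9 ± 4.68 CPM in B6 and 31.4 ± 0.626 in D2. The log2 fold change came to -0.77 (SE 0.17, adjusted p = 0.00161, edgeR), and the call held with each library left out in turn. The anchor at 102 kb had 92, 87, 51 and 51 counts (-0.78, SE 0.20, adjusted p = 0.00743, edgeR), and of the fits without a single library this call was lost only without B6 replicate 1 (adjusted p = 0.0808). The anchor at 124 kb, over the pseudogene Gm12513, had 113, 85, 58 and 69 counts (-0.61, SE 0.19, adjusted p = 0.0369, edgeR). Its call was lost without B6 replicate 1, D2 replicate 1 or D2 replicate 2, at adjusted p of 0.496, 0.185 and 0.0517.

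The anchor at 112 kb, chr4:55419283-55421643, had almost no counts in D2. It overlaps no annotated gene and had 23, 12, 1 and 0 counts over 16 pairs. Every count of its recorded pairs with other anchors of the locus, such as the 8 with the enhancer anchor and the 3 with Klf4, came from B6. In CPM summed over the lines the B6 to D2 ratio was 35, with an exact 95% counting interval of 5.89 to 1422, which covers counting error only. The fitted log2 fold change was -4.79 (SE 0.82, adjusted p = 4.14e-05, edgeR), and it depends on the prior count. It was -7.16 without D2 replicate 1, the library with the single D2 count, and -3.84 without D2 replicate 2, called in both fits. DESeq2 gave an adjusted p of 0.0533.

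This anchor consists of repeats for 97.8% of its length by the soft-masking of the reference, more than 99.4% of all anchors, whose median is 25.2%. Among the 133 tested anchors masked over at least 95% of their length, 14 were called lower in D2 (10.5%) and 1 higher, with a median of -0.17. Of 51820 tested anchors, 33 had at most 1 count in D2 and at least 35 in B6. The part of repeats in the low counts was not tested.

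**Figure D3:**
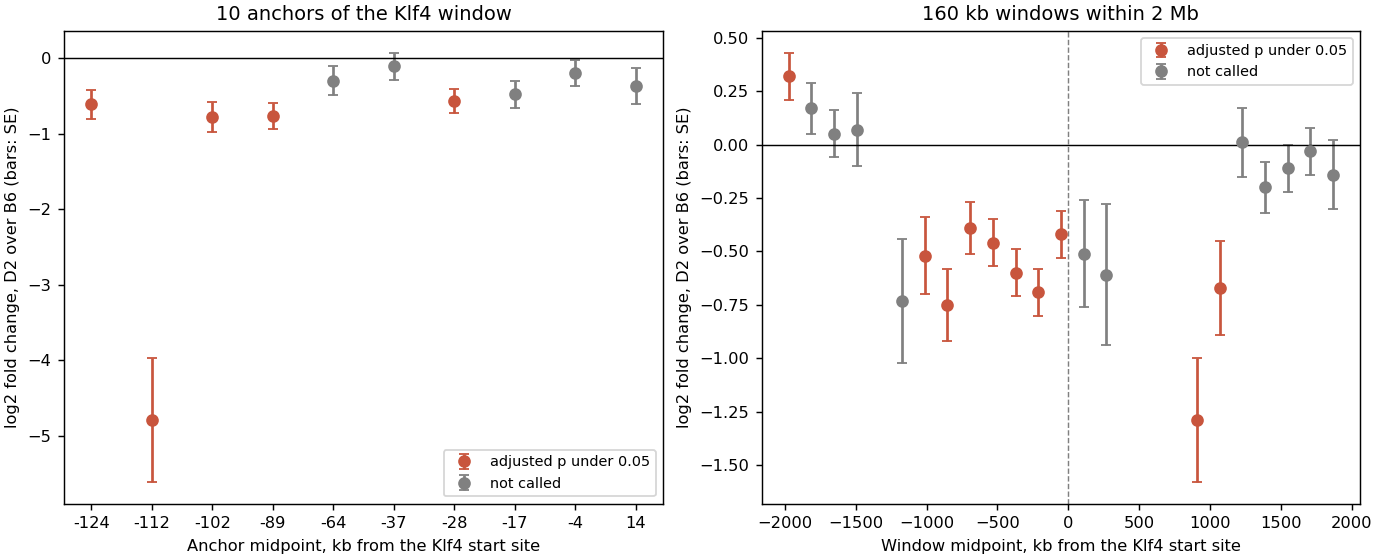
Left, log2 fold change of D2 over B6 (bars: SE) for the 10 anchors, by midpoint in kb from the Klf4 start site (negative is downstream, positions evenly spaced). Right, the same for the tested 160 kb windows within 2000 kb. The anchor 112 kb downstream lies at -4.79 and the others between -0.78 and -0.11, and the windows called lower (red, below 0) include the 7 from 960 kb below the locus up to it.

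Within the counts of either anchor, the share of the Klf4 to enhancer contact was higher in both D2 libraries than in both B6 libraries. Of the counts of the enhancer anchor, 15.8% and 14.7% went to Klf4 in B6 and 21.3% and 19.5% in D2. Exact binomial 95% intervals were 13.6 to 18.2% and 12.4 to 17.1% in B6 and 18.7 to 24.2% and 16.5 to 22.9% in D2, for counting error only. The means were 15.2 ± 0.809% and 20.4 ± 1.29% (SD, n = 2 each), a difference of 5.20 percentage points with no overlap between strains. The exact permutation p was 0.33, the smallest possible. D2 replicate 1, with the highest share, had counts on the fewest pairs of the table (715798). The part of this in the shares was not tested.

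Of the counts of the Klf4 anchor, 40.9% and 35.2% went to the enhancer anchor in B6 and 51.2% and 42.9% in D2. The lowest D2 share was above the highest B6 share, by less than the width of their binomial intervals (35.9 to 46.0% in B6 replicate 1, 37.0 to 48.9% in D2 replicate 2). The difference of the means was 9.01 percentage points (exact permutation p = 0.33). It was 4.81 without D2 replicate 1, 6.17 without B6 replicate 2 and 13.2 without D2 replicate 2. Without the enhancer pair, the Klf4 anchor had 78.1, 86.8, 63.6 and 54.3 CPM, a log2 ratio of -0.49. Without the Klf4 pair, the enhancer anchor had 288, 275, 246 and 168 CPM, a log2 ratio of -0.47. Pairs of neither anchor had 126, 114, 65.8 and 82.2 CPM, a log2 ratio of -0.70. In each of these 3 sums both D2 libraries lay below both B6 libraries.

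**Figure D4:**
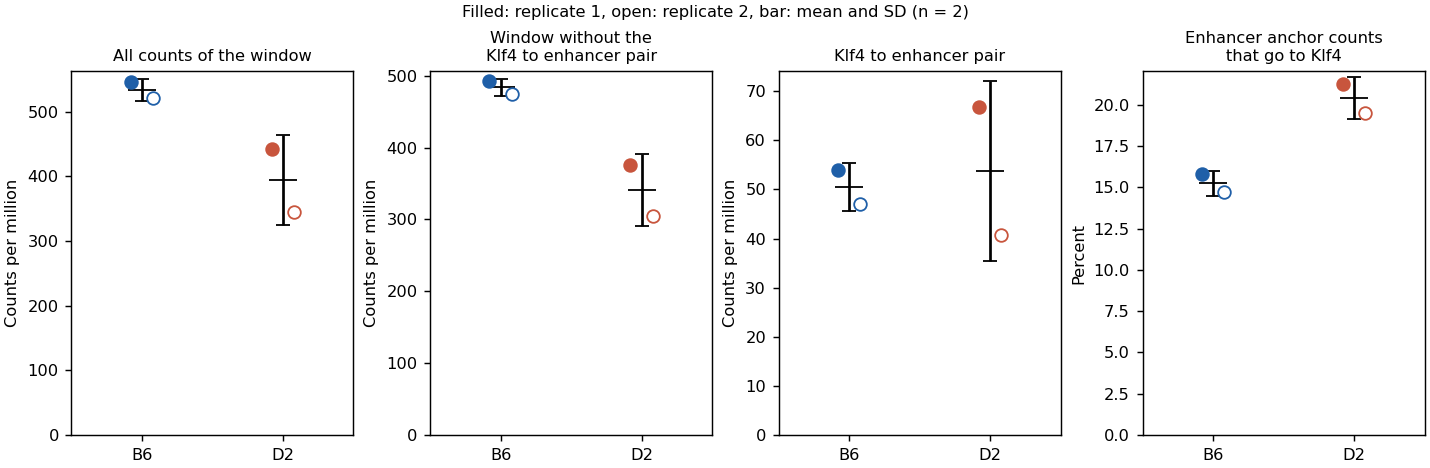
Values in each library (filled: replicate 1, open: replicate 2, bars: mean and SD, n = 2) for the CPM of the locus, of the locus without the Klf4 to enhancer pair and of that pair, and for the percent of enhancer anchor counts that go to Klf4. The D2 libraries are below the B6 libraries in the first 2 panels, lie on both sides of them in the third and above them in the fourth.

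Outside the window the locus contacted 109 anchors, 64 at lower and 45 at higher coordinates, and 33 of them held at least 20 counts with it. Of those 33, 22 lay on the lower side, where the nearest coding gene was Zfp462, Rad23b or, for the farthest, Tmem38b. Zfp462 encodes a zinc finger protein and Rad23b a factor of nucleotide excision repair. The partner with the most counts, 188, was the anchor at chr4:55023157-55055138 within Zfp462, 493 kb from the Klf4 start site. It gave 66, 51, 41 and 30 counts over all anchors of the locus, 116 of them with the enhancer anchor and 19 with Klf4. Its pair with the enhancer anchor had 38, 34, 27 and 17 counts (-0.77, SE 0.31, adjusted p = 0.252, edgeR), with no overlap between strains in CPM. It was at -1.18 without D2 replicate 1 and -0.45 without D2 replicate 2.

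The next partner, at chr4:55130818-55148174, overlaps the long noncoding RNA gene Gm12514 at an annotated start site and gave 54, 56, 39 and 25 counts. Its pair with the enhancer anchor had 32, 33, 30 and 13 counts (-0.66, SE 0.32, adjusted p = 0.388, edgeR), at -1.42 without D2 replicate 1 and -0.15 without D2 replicate 2. The anchor at chr4:55323988-55333974 gave 48, 43, 39 and 43 counts in all. The anchor at chr4:55303488-55318531 gave 48, 47, 31 and 32, and its pair with the enhancer anchor had 26, 30, 17 and 20 (-0.66, SE 0.34, adjusted p = 0.427, edgeR). The anchors at chr4:55198364-55211594, within Gm12514, and at chr4:54919289-54939531 gave 145 and 131 counts over the 4 libraries. Another start site of Gm12514 lies in a partner together with that of the pseudogene Gm12512, which gave 44, 40, 21 and 23 counts. As in all 33 partners with at least 20 counts, more counts went to the enhancer anchor (81) than to the narrower Klf4 anchor (16).

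On the other side, past a stretch with few anchors, the locus contacted start sites at 1323 kb and beyond. The anchor over Ctnnal1, which encodes a relative of alpha-catenin, lies 1323 kb from Klf4 and gave 44, 28, 26 and 25 counts, 80 of them with the enhancer anchor. The anchor over Gm12530 gave 8, 8, 8 and 6. The most distant partner with at least 20 counts lies within the phosphatase gene Ptpn3, 1745 kb away, with 10, 7, 7 and 5. On the lower side, the anchor over the ion channel gene Tmem38b and the ribosomal RNA gene n-R5s185 lies 1685 kb away and gave 35, 28, 28 and 25 counts.

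As anchors in their own right, over all their pairs, 14 of the 33 partners were called lower in D2 and 0 higher by edgeR, beside 7.08% and 2.67% of all tested anchors. They include pairs with the locus and with each other. The Gm12514 partner at 393 kb had a log2 fold change of -0.65 (adjusted p = 0.00617, edgeR) and the partner with Gm12512 had -0.79 (adjusted p = 5.68e-04, edgeR). The distant partners over Ctnnal1 (-0.14, adjusted p = 0.688), Gm12530 (0.30, adjusted p = 0.251) and Tmem38b (0.24, adjusted p = 0.446) were not called.

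**Figure D5:**
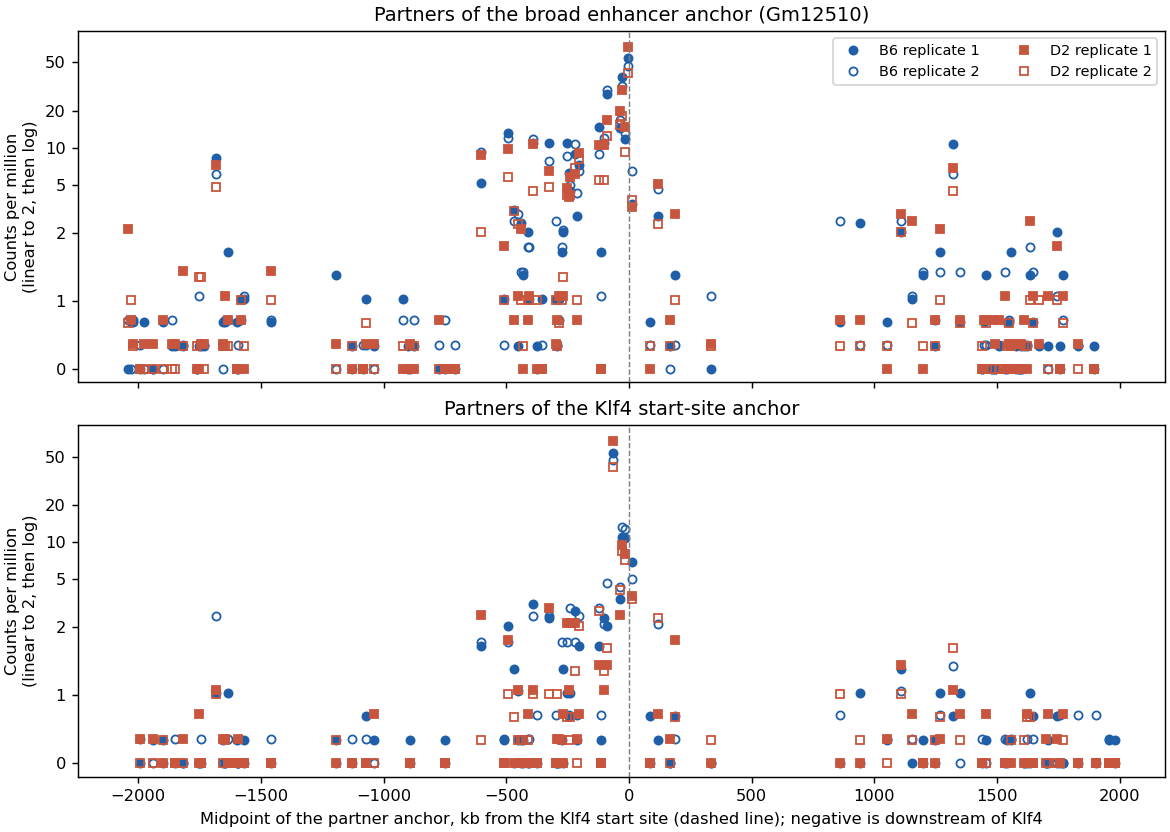
CPM in each library between the enhancer anchor (top) or the Klf4 anchor (bottom) and each of their partners, by the partner's midpoint in kb from the Klf4 start site (dashed line, negative is downstream, vertical axis linear to 2 and logarithmic above). Both profiles peak at each other, up to 66.8 in D2 replicate 1, and show further partners out to 603 kb downstream, with others at 1323 kb upstream and 1685 kb downstream.

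Of a list of 15 other genes of the naive network, chosen with earlier results of these data known, 11 had a start-site anchor, 13 anchors in all. Called higher in D2 were 2 of the 13 and lower 0 by edgeR, with 5 at unadjusted p under 0.05, all higher, beside the 2.67% and 7.08% of all tested anchors. The median log2 fold change was 0.08, beside 0.006 over all tested anchors and -0.20 for the Klf4 anchor. The pluripotency factor genes Nanog (496, 518, 981 and 588 CPM, log2 fold change 0.68, adjusted p = 0.0263, edgeR) and Sox2 (173, 213, 332 and 242 CPM, 0.62, adjusted p = 0.0185, edgeR) were the 2 called. In both, D2 replicate 1 was the highest library. Neither the difference between these genes and Klf4 nor its cause was tested. Without D2 replicate 1 the list had no call higher and 1 lower in D2, with 3 at unadjusted p under 0.05, 2 of them lower. Without D2 replicate 2 it had 5 calls, all higher, and without either B6 library edgeR called 0, with 1 (without replicate 1) and 2 (without replicate 2) at unadjusted p under 0.05, all higher. DESeq2 called 0, with 3 at unadjusted p under 0.05.

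The start-site anchors most like that of Klf4 in level over the 4 libraries were those of Ggnbp2, Syvn1, Bbc3, B4galt3 and Apobec2, at Euclidean distances of 0.166 to 0.188 in log2 CPM. The anchor of Ggnbp2, at the least distance, had 120, 127, 128 and 98.5 CPM beside the 132, 134, 130 and 95.1 of Klf4. The measure rests on 4 libraries and on CPM not divided by anchor width. D2 replicate 2 was the lowest library in each of the 5, as for Klf4, and choosing them by these same values favours that.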

How the data were processed

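H3K27ac HiChIP counts of 4 libraries (2 lines each of B6 and D2) were analysed as deposited. The authors aligned and filtered 75 base reads with HiC-Pro 2.11.4 on mm10, per the submitters' processing notes, which also name DESeq2. Whether D2 reads were aligned to DBA/2J sequence is not given in the sources used here. The deposited values are whole-number counts of read pairs per pair of anchors, 5 to 2000 kb apart. Single-library files repeat the counts with a value from 0 to 1, deposited without a name in the header and read here as a p-value or q-value, used only as an alternative filter (under 0.01). All 56562 anchors start and end within 5 bases of a DpnII site (GATC) of GRCm38.p6, so genes were taken from GENCODE M21 and sequences from RefSeq of that build.

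Anchor and window counts are sums over pairs. The main test was edgeR 4.0.16 (R 4.3.3, quasi-likelihood, TMM, at least 20 counts over the 4 libraries, strain as the single term, Benjamini-Hochberg over the whole table, adjusted p under 0.05). DESeq2 1.42.0 was an alternative. Intervals are the fold change ± 1.96 SE. On simulated anchor counts with 200 anchors changed 2-fold, 42% were called, and 90% at 3-fold. For pairs it was 1.51% of 199 and 38.5% of 200. The simulation gave every feature the same spread beyond counting error. It made all changes higher in D2 and left the other features unchanged. The percentages hold for those settings and are not the power in these data. Library totals ranged from 2767882 to 2944258, and counting intervals cover counting error only.

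The locus, the lists and the tests were chosen with earlier results of these data known. Named were every anchor of the locus, the 12 pairs with the most counts, called pairs (10 or fewer), tested pairs of Klf4 with anchors 50 to 70 kb downstream, the 6 partners with the most counts, the most distant partner with at least 20 counts, genes starting in partners of at least 20 counts, and the 5 start-site anchors nearest to Klf4 in log2 CPM. A partner that this rule would name is not reported here.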

Additional observations from a re-analysis of the deposited data

How the results depend on the processing

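The called pairs of the locus numbered 1 in the main test, 0 with a count minimum of 10 (edgeR, 9 of 80 at unadjusted p under 0.05), 0 by DESeq2 (2 of the 16 pairs given an adjusted p at unadjusted p under 0.05) and 0 to 2 with single libraries left out. Called anchors numbered 5, against 0 by DESeq2 (4 at unadjusted p under 0.05), 3 with no count minimum and 2 to 6 with single libraries left out. Called anchors of the naive network numbered 2, against 4 with library totals, 0 by DESeq2 (3 at unadjusted p under 0.05), 0 with no count minimum (edgeR, 4 at unadjusted p under 0.05) and 0 to 5 with single libraries left out. The 160 kb window had log2 fold changes from -0.63 to -0.21 with single libraries left out. The Klf4 to enhancer pair ranged from -0.37 to 0.32, the pair of the enhancer anchor with chr4:55493578-55498148 from -0.09 to 0.27 (-0.0054 without B6 replicate 1), and the pair of the enhancer anchor with chr4:55512464-55517611 from -0.50 to 0.17. The enhancer anchor ranged from -0.69 to 0.01 and the Klf4 anchor from -0.50 to 0.07. The cause was not tested.

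Replicate numbers name separate lines and gave no pairing: deviations of libraries with the same number correlated at r = -0.00183 over pairs and 0.00564 over anchors. With the replicate number as a block, called pairs stayed at 1 and called anchors at 5, naive network anchors rose to 4, the window was at -0.43 (adjusted p = 5.87e-04, edgeR) and the Klf4 to enhancer pair at -0.0041 (adjusted p = 0.994, edgeR).

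Over the 12 named pairs, 120 values under an alternative kept direction and call, 5 lost and 1 gained the call and 6 changed sign. Over the 10 anchors the numbers were 81, 14, 3 and 2. Under the alternatives that kept all 4 libraries, 3 values moved by less than 1 SD within strains. These were the locus total, the Klf4 to enhancer count and the share of Klf4 anchor counts going to the enhancer anchor. With single libraries left out, the log2 ratios ranged from -0.63 to -0.27 for the locus total and from -0.31 to 0.41 for the Klf4 to enhancer count. The difference in share ranged from 4.81 to 13.2 percentage points. With 2 libraries a strain, leaving 1 out cannot move a value by more than that SD, so the SD is no measure of stability there. The other sums and shares were computed under the main setting alone. Depth limits the pairs, of which 201 of 545 hold a single count.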
